A study of Mus musculus with 18 samples.

Results

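Alpha-ketoglutarate-dependent dioxygenases are iron enzymes that use oxygen and alpha-ketoglutarate to oxidise their substrates. The family removes methyl groups from DNA, histones and RNA, hydroxylates the hypoxia-inducible transcription factors and collagen, and makes carnitine. Mutant isocitrate dehydrogenase 2 converts alpha-ketoglutarate into 2-hydroxyglutarate, which resembles it and competes with it in many of these enzymes. The 42 genes described here were chosen by name as enzymes of this family, with earlier results of these data known. All 42 were found on the array, on 105 of its 45101 probe sets. Each gene was represented by its brightest probe set, as were all 20672 genes tested.

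The arrays hold 3 groups of mice. In the Idh2R140Q/NHD13 group, 9 arrays were made from leukemic spleens of mice with the mutant Idh2 allele and NHD13, the NUP98-HOXD13 fusion. Their T-cell acute lymphoblastic leukemia (T-ALL) is labelled DN1/DN2, after the earliest thymocyte stages, which carry neither CD4 nor CD8. In the SCL/LMO1 group, 6 arrays were made from leukemic thymi of SCL-LMO1 mice, whose cortical T-ALL carries CD4 and CD8. Wild-type (WT) thymus gave 3 arrays. The sources used here do not give age, strain or the promoters of the transgenes. No group analysed here carried the Idh2 allele or NHD13 alone, and no wild-type spleen was analysed here, so genotype, leukemia type and tissue cannot be told apart in either comparison with the spleen group. The arrays measured RNA, not enzyme activity or 2-hydroxyglutarate. In bulk tissue, fewer cells of a type and less RNA per cell cannot be told apart.

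Several features of the samples touch the values below. The arrays of mice 546 and 550 were closer to each other (root mean square difference 0.212 on the log2 scale) than any other pair of arrays (0.445 or more). They were averaged as 1 sample (written 546+550), leaving 8, 6 and 3 samples. The mean of 12 T-lineage markers was 6.29 to 7.94 in Idh2R140Q/NHD13 spleens, 11.37 to 12.19 in SCL/LMO1 thymi and 11.22 to 11.90 in WT thymi, and 3 of the 12, Lck, Lat and Cd3e, were not called lower in the spleens than in WT. Lck ran from 7.93 to 13.15 within the spleens, with 11.43 or more in mice 524, 526, 546+550, 555 and 559 and 8.19 or less in 525, 531 and 570. The mean of 12 erythroid markers was 9.39 to 12.92 in the spleens, 5.26 to 5.71 in SCL/LMO1 thymi and 5.48 to 5.54 in WT thymi. All 12 erythroid markers were higher and all 12 T-lineage markers lower in the spleens than in SCL/LMO1 thymi (limma, adjusted p under 0.05). Of other marker lists, 6 of 10 neutrophil, 5 of 10 macrophage and 6 of 8 endothelial markers were higher in the spleens than in SCL/LMO1 thymi. The neutrophil mean had a median of 10.02 in the spleens, 7.02 in SCL/LMO1 thymi and 6.02 in WT thymi. Relative to WT, adipocyte markers were lower in the spleens (8 of 8) and in SCL/LMO1 thymi (7 of 8), as were thymic epithelium markers (6 of 8 and 4 of 8). By Xist and Ddx3y, 4 of 8 spleen samples, 1 of 6 SCL/LMO1 samples and 3 of 3 WT samples were female. Spleen mouse 555 carried both transcripts (9.53 and 6.70) and a mean of 10.29 over 8 kidney tubule markers, against at most 5.05 elsewhere. SCL/LMO1 mouse 6889/1, the only female of its group, had a mean of 9.37 over 8 skeletal muscle markers, against at most 7.15 elsewhere. SCL/LMO1 mouse 3767 had a mean of 8.73 over 8 thymic epithelium markers. The rest of its group had 5.61 to 6.56 and WT thymi had 8.88 to 9.63. Its adipocyte marker mean of 8.21 was the highest of its group. The part of these differences in the results was not tested. The number of arrays limits the precision. Samples are named by the number in their title, taken here as a mouse, and 7114/1 and 7114/3 share a first number.

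Between the leukemias, 12 of the 42 dioxygenase genes differed in Idh2R140Q/NHD13 spleens relative to SCL/LMO1 thymi (limma, adjusted p under 0.05 over all genes). That is 28.6% of them, against 23.7% of all genes. Of these, 4 were higher in the spleens (Kdm4a, Kdm5c, Alkbh7 and Alkbh8), where 11.7% of all genes were higher. The other 8 were lower (Tet1, Kdm3a, Kdm4b, Kdm4c, Phf2, P4ha1, P4ha2 and Plod2), where 12% of all genes were lower. The median log2 difference was -0.25 over the 42 genes and 0.03 over all genes, and 26 of the 42 values lay below 0. At least 2-fold and called were 4 of the 42 genes, against 10.5% of all genes. For 2 genes, Kdm3a and Kdm5c, the samples of the leukemias did not overlap, a share of 4.76% against 8.69% of all genes.

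Fewer genes differed from WT thymus. In Idh2R140Q/NHD13 spleens 4 of 42 were called, all lower (Kdm3a, Kdm6b, Phf2 and Tmlhe), a share of 9.52% against 17.4% of all genes called and 8.31% called lower. At least 2-fold and called were 2 of 42 (Phf2 and Tmlhe), against 9.33% of all genes. The groups did not overlap for 3 of 42 genes (Kdm6b, Phf2 and Tmlhe), against 12.1% of all genes. In SCL/LMO1 thymi 6 of 42 were called, a share of 14.3% against 11.6% of all genes. Higher were P4ha1, Plod2, Alkbh1 and Alkbh4, and lower were Tmlhe and Phyh, where 5.04% and 6.52% of all genes were called higher and lower. At least 2-fold and called were 3 of 42 (Plod2, Tmlhe and Phyh), against 6.21% of all genes. In that comparison 8 of 42 genes had no overlap, against 20.9% of all genes. The median log2 difference of the 42 genes was -0.10 for Idh2R140Q/NHD13 over WT, where all genes had 0.10, and 0.04 for SCL/LMO1 over WT, where all genes had 0.08. The 3 comparisons share samples, so a gene called in 2 of them is not called independently. In all, 25 of the 42 genes were called in no comparison, 12 in 1 and 5 in 2. These counts were not made over all genes, so they have no share to be set against.

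**Figure D1:**
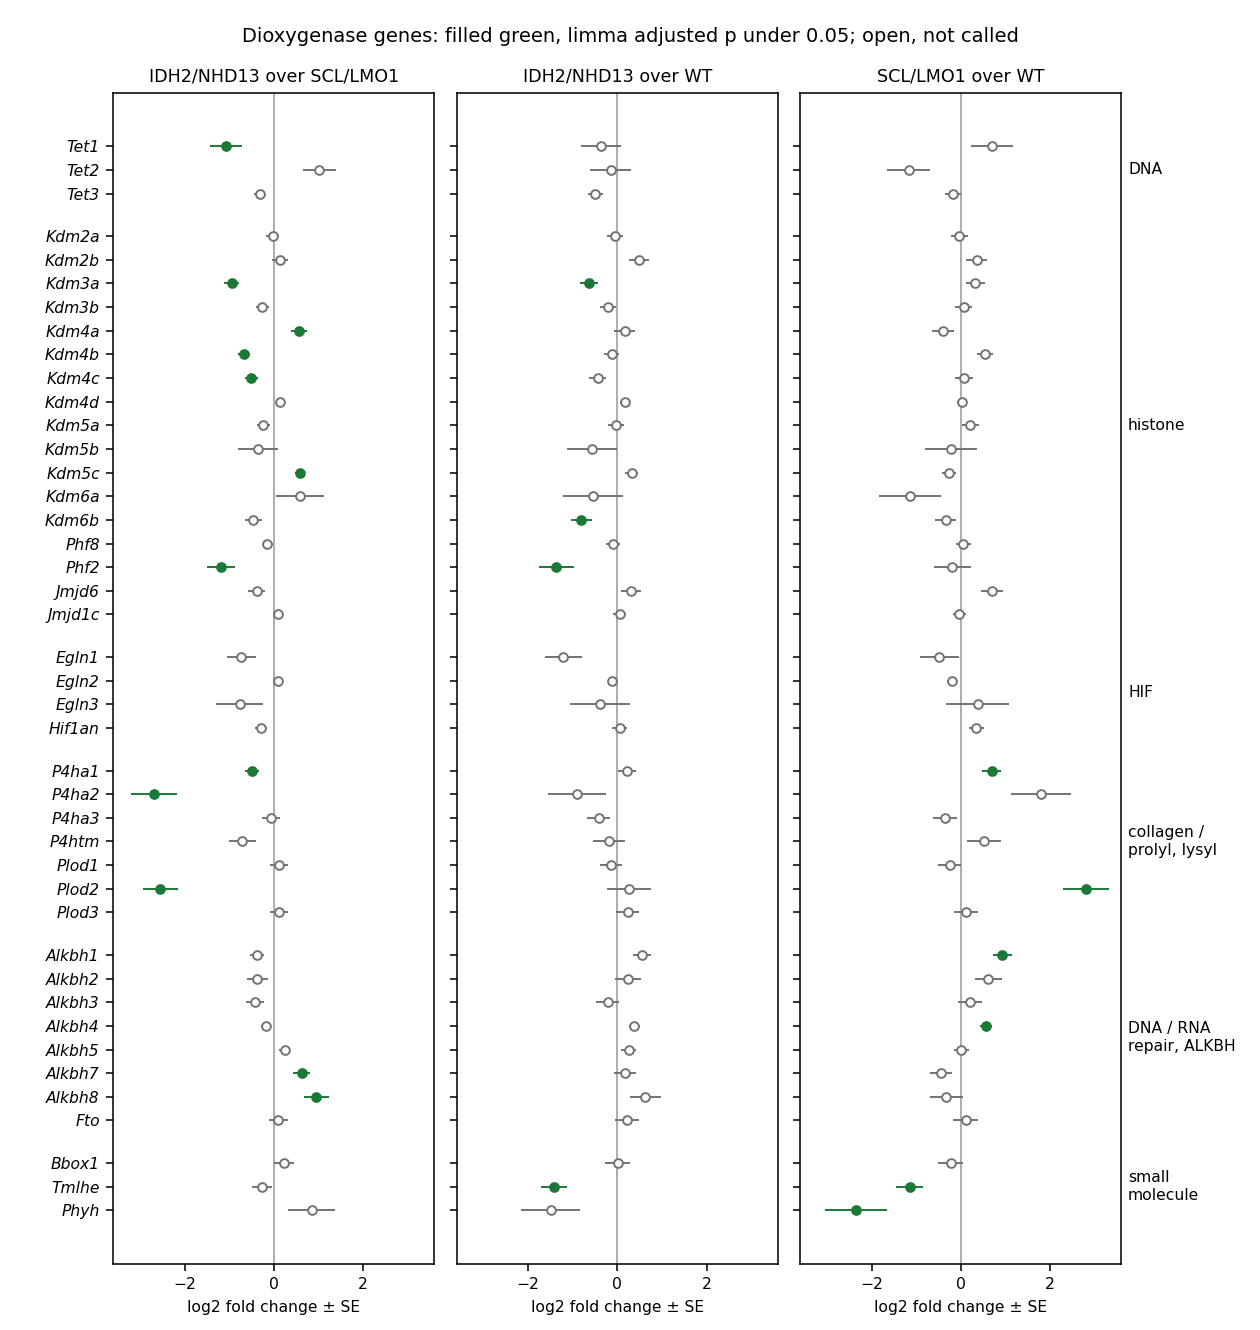
Log2 fold change with its standard error (x axis) for the 42 dioxygenase genes (rows, by class) in the 3 comparisons, with filled green points for an adjusted p under 0.05. P4ha2 and Plod2 lie farthest to the left for Idh2R140Q/NHD13 over SCL/LMO1, and no gene is called higher for Idh2R140Q/NHD13 over WT.

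The TET enzymes oxidise 5-methylcytosine in DNA, the first step of active demethylation, and are among the enzymes that 2-hydroxyglutarate can inhibit. Tet1 had a lowest, median and highest log2 signal of 6.33, 6.56 and 8.71 in Idh2R140Q/NHD13 spleens, and of 7.53, 8.03 and 8.68 in SCL/LMO1 thymi. WT thymi had 6.97, 7.06 and 7.99. The leukemias overlapped through spleen mice 524 and 526 alone, while the other 6 spleens lay below every SCL/LMO1 thymus. Tet1 was 2.10-fold lower in the spleens (log2 -1.07, SE 0.36, limma adjusted p = 0.041). The call was lost without any one of 10 samples, mice 525, 531, 546+550, 555, 559, 570, 3767, 7114/3, 6466/4 and 6883/2, with adjusted p of 0.0501 to 0.0936, and with sex as a covariate (0.117), without mice 555, 627 and 6889/1 (0.0593) or with only the 2 groups in the fit (0.0504). When each Tet1 probe set was tested alone, 3 of 4 were lower in the spleens. Their log2 differences were -1.07, -1.91 (adjusted p = 4.72e-05) and -2.52 (0.00689), and the remaining one, at a mean of 4.60 in the spleens and 4.73 in SCL/LMO1 thymi, gave -0.13 (0.232). On the probe set with -1.91, all spleens but mouse 524 had 4.80 to 5.69. On the one with -2.52, mice 525, 531, 546+550 and 559 had 4.42 to 5.77. These values lay below the array medians and cannot be separated from background.

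Tet2 was not called in any comparison, though some alternatives called it. Its lowest, median and highest values were 7.99, 8.81 and 9.86 in Idh2R140Q/NHD13 spleens and 6.72, 7.92 and 8.71 in SCL/LMO1 thymi, and WT thymi had 8.48, 8.97 and 9.36. The leukemias overlapped over much of their ranges, with the lowest values in SCL/LMO1 mice 6466/4 and 7114/1. The log2 difference was 1.02 for the spleens over SCL/LMO1 thymi (SE 0.36, limma adjusted p = 0.0508), and it passed the threshold without any one of mice 525, 526, 559, 6889/1 and 6883/2 (0.0269 to 0.0459). It also passed in 5 of 13 other settings, among them the filter on dim genes (0.037) and all 18 arrays taken separately (0.0401), and with array weights SCL/LMO1 thymi differed from WT (-1.44, 0.0305). For Tet3 the values were 6.13, 6.48 and 6.89 in the spleens, 6.59, 6.73 and 7.24 in SCL/LMO1 thymi, and 6.68, 6.93 and 7.27 in WT thymi. Its adjusted p was 0.104 for the spleens over SCL/LMO1 thymi and 0.0531 for the spleens over WT (log2 -0.49, SE 0.17), and the comparison with WT passed without any one of mice 524, 546+550 and 3767 (0.0304 to 0.0458).

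Among 9 genes that write, read or supply the same DNA mark, 3 were lower in Idh2R140Q/NHD13 spleens than in SCL/LMO1 thymi and none was higher (33.3% called, against 23.7% of all genes), with a median of -0.18 over the list and 0.03 over all genes. They were Dnmt3a, a de novo DNA methyltransferase (log2 -1.20, limma adjusted p = 0.0136), Uhrf1, which guides maintenance methylation (-0.87, 0.00665), and Ogt, a TET partner (-0.70, 0.00851). Dnmt3b, the other de novo methyltransferase, was higher in the spleens than in WT thymus (log2 1.80, 0.0213). Idh2 RNA itself gave a log2 difference of 0.11 between the spleens and SCL/LMO1 thymi (0.886).

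Of 17 histone demethylases and related JmjC genes, 6 differed between the leukemias, 35.3% against 23.7% of all genes. Kdm3a, which removes methyl groups from histone H3, was the only one of them lower in the spleens with no overlap. It had 9.90, 10.28 and 10.91 (lowest, median, highest) in Idh2R140Q/NHD13 spleens and 11.12, 11.28 and 11.65 in SCL/LMO1 thymi. WT thymi had 10.55, 11.12 and 11.28. It was 1.93-fold lower in the spleens than in SCL/LMO1 thymi (log2 -0.95, SE 0.16, limma adjusted p = 0.000518), a call kept whichever sample was left out. Against WT it was lower by a log2 difference of -0.63 (adjusted p = 0.0431), and that call was lost without any one of 12 samples (623, 631, 525, 531, 546+550, 559, 570, 3767, 7114/3, 6889/1, 6466/4 and 6883/2), with adjusted p of 0.0509 to 0.235. It was also lost with centred medians (0.122), with only the 2 groups (0.107), with both close pairs as random blocks (0.0793) and with sex as a covariate (0.0511).

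The Kdm4 enzymes act on methylated histone H3 and moved in both directions. Kdm4b had 6.55, 7.01 and 7.60 in Idh2R140Q/NHD13 spleens, 7.50, 7.70 and 7.82 in SCL/LMO1 thymi, and 6.90, 7.03 and 7.44 in WT thymi. Spleen mouse 524 alone reached the SCL/LMO1 range. The difference between the leukemias was -0.67 (SE 0.14, limma adjusted p = 0.00207) and held without any single sample. Kdm4c was lower by -0.51 (0.0228), a call lost without SCL/LMO1 mouse 6466/4 (0.0554) or 7114/1 (0.0574), with sex as a covariate (0.068) and with both close pairs as random blocks (0.058). Kdm4a was higher by 0.57 (0.034), with 8.32, 8.72 and 9.21 in the spleens and 7.47, 8.31 and 8.68 in SCL/LMO1 thymi. Its call was lost without any one of mice 524, 526, 546+550, 559, 7114/3, 6889/1 and 6883/2 (0.0509 to 0.0831), with centred medians (0.108), with both close pairs as random blocks (0.0777), with mice 7114/1 and 7114/3 averaged (0.0526) and with the mean of its probe sets (log2 0.16, 0.372). Kdm4d was not called and lay between 3.77 and 4.32 in all samples.

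Phf2, a JmjC demethylase of histone H3, was lower in the spleens than in both thymus groups. Its lowest, median and highest values were 7.10, 8.88 and 9.63 in Idh2R140Q/NHD13 spleens and 9.37, 9.79 and 10.32 in SCL/LMO1 thymi, and WT thymi had 9.64, 10.14 and 10.24. The spleens did not reach the WT range and 1 of them, mouse 524, entered the SCL/LMO1 range. The log2 difference was -1.18 against SCL/LMO1 thymi (SE 0.31, limma adjusted p = 0.0115) and -1.37 against WT (SE 0.39, 0.0252), and the WT call was lost without mouse 623 (0.123) or 631 (0.0704), with only the 2 groups (0.0744) and without mice 555, 627 and 6889/1 (0.0543). The other 3 probe sets of Phf2, at mean signals of 4.20 to 6.20, gave -0.14 to 0.13 between the leukemias and were not called, and the mean of all 4 gave -0.30 (0.027) between the leukemias and -0.33 (0.061) against WT. Kdm6b, which demethylates histone H3, was lower in the spleens than in WT (log2 -0.81, SE 0.23, 0.0258). It had 8.61, 9.15 and 9.31 in the spleens, 9.08, 9.39 and 10.43 in SCL/LMO1 thymi and 9.65, 9.88 and 10.03 in WT thymi, and its call was lost without WT mouse 623, 627 or 631 (0.0505 to 0.131), with centred medians (0.0578) and with the mean of its probe sets (0.0878).

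Kdm5 enzymes remove methyl groups that mark active promoters. Kdm5c, on the X chromosome, was higher in the spleens by 0.59 (SE 0.12, limma adjusted p = 0.00161), with 9.25, 9.49 and 9.78 in Idh2R140Q/NHD13 spleens, 8.39, 8.90 and 9.17 in SCL/LMO1 thymi and 9.06, 9.08 and 9.30 in WT thymi. The leukemias did not overlap, no single sample decided the call, and with sex as a covariate the difference was 0.53 (0.00598). Its 8 probe sets were not all alike. Another was also higher in the spleens (0.36, 0.0218), 1 was lower (-0.80, 0.0033), and the mean of all 8 gave 0.14 (0.303). Kdm5a gave -0.24 (0.251) on its brightest probe set, between 9.54 and 10.53 in the spleens and 9.80 and 10.53 in SCL/LMO1 thymi. Of its other 5 probe sets, 3 were lower in the spleens, by -2.13 (2.31e-06), -1.51 (0.00132) and -0.77 (0.0151). The first and second of these were also lower in the spleens than in WT, by -1.67 and -1.41. The sources used here do not say which transcripts each probe set detects.

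**Figure D2:**
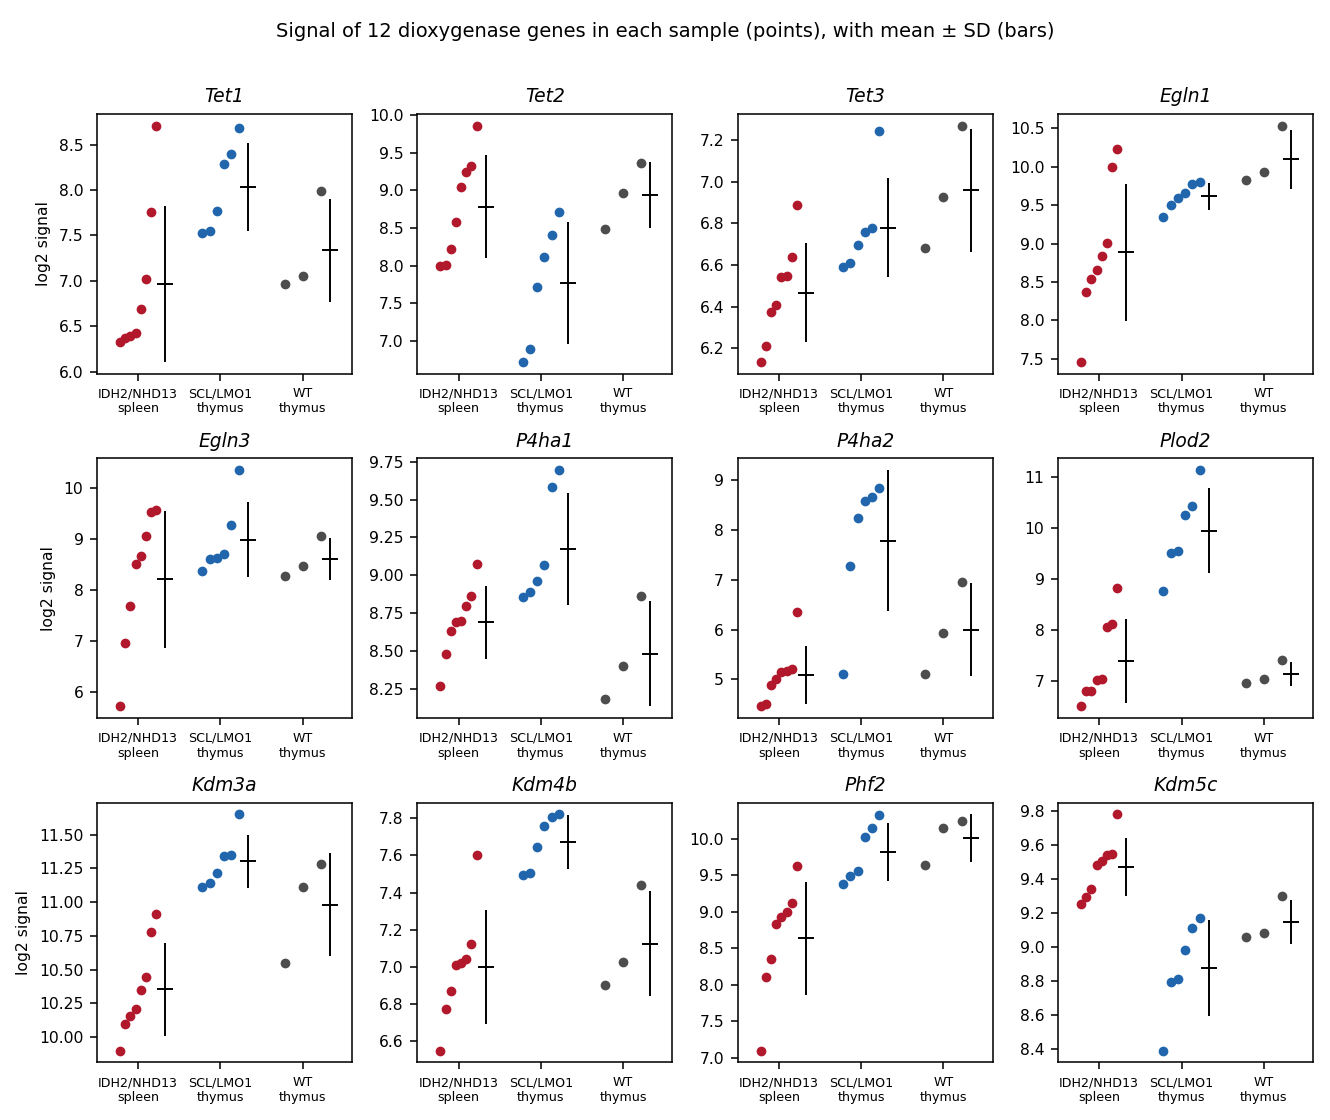
Log2 signal (y axis) of 12 dioxygenase genes in each sample (points, sorted within a group), with the mean and SD as bars, for Idh2R140Q/NHD13 spleen, SCL/LMO1 thymus and WT thymus from left to right. Kdm3a and Kdm5c separate the leukemias without overlap, whereas Phf2 and Kdm4b overlap through spleen mouse 524 and Tet1 through mice 524 and 526.

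Kdm6a, an X-linked relative of Kdm6b with the Y-linked copy Uty, had 1 sample far from all others. It had 9.31, 9.88 and 10.76 in Idh2R140Q/NHD13 spleens, 5.99, 9.96 and 10.38 in SCL/LMO1 thymi, and 10.17, 10.64 and 10.69 in WT thymi. The value of 5.99 belonged to SCL/LMO1 mouse 7114/1, and the other 5 SCL/LMO1 mice lay between 9.87 and 10.38. In that mouse 3 of 4 probe sets were 16.0-fold, 16.4-fold and 21.2-fold below the mean of the other 5, and the other, dim one was 1.26-fold below. The signals of these 3 in this mouse, 5.45, 5.99 and 3.81, were low enough that they cannot be separated from background, so the folds compare signals only and may understate a difference. Of all 20672 genes, Kdm6a had the gap ranked 2 from the lowest in this mouse. Of 12 measured neighbours on the X chromosome, 9 were within the range of the other 5 mice, among them Fundc1 (10.44, against 10.13 to 10.71) and Rp2 (9.51, against 9.23 to 9.62). Maoa (10.22) and Dusp21 (4.48) lay above it and Jade3 (7.98) below it. Maob, Ndp, Efhc2, Dusp21, Dipk2b, Chst7 and Rgn lay near or below the array medians in all SCL/LMO1 mice. A fall could not have been seen in these neighbours. Kdm6a was not called in any comparison. The log2 difference between the leukemias was 0.59 (SE 0.54, limma adjusted p = 0.47) with mouse 7114/1 and -0.09 (0.822) without it. The mouse is male by Xist and Ddx3y, and its Uty value of 8.14 lay within the range of the other SCL/LMO1 males.

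**Figure D3:**
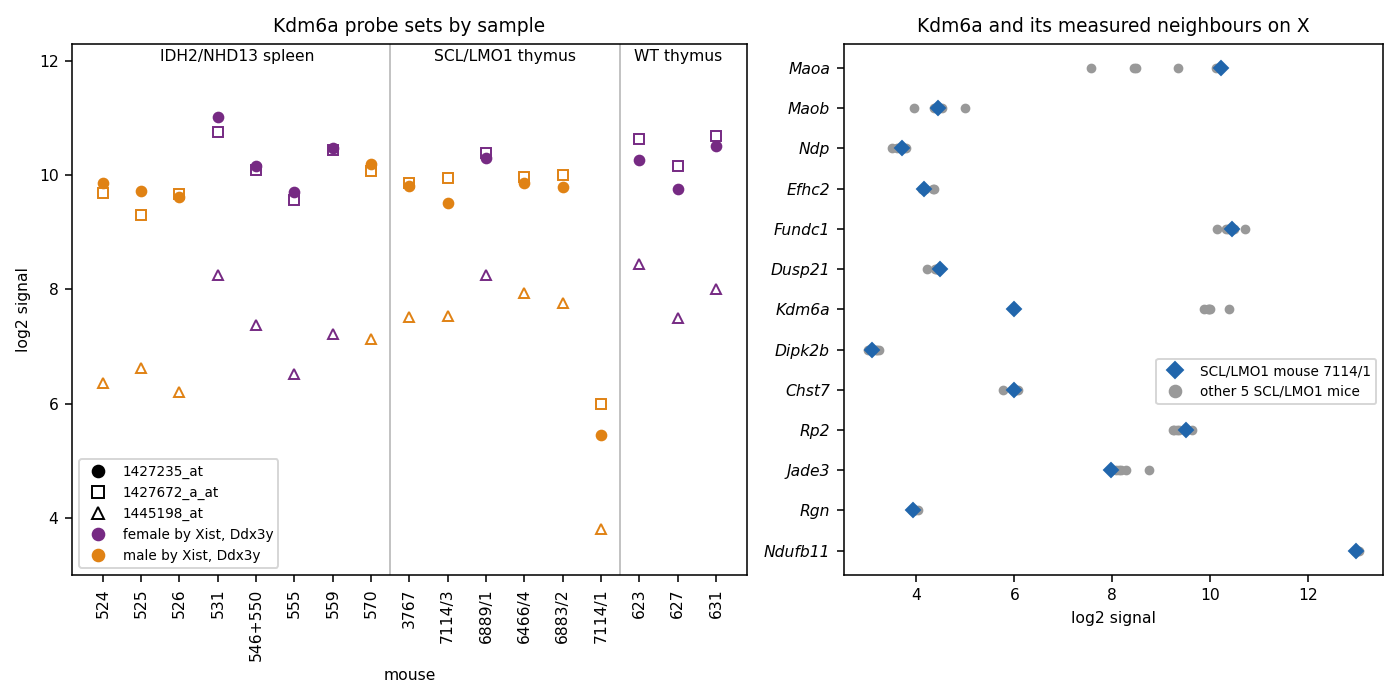
Left, log2 signal (y axis) of 3 Kdm6a probe sets in each mouse (x axis), coloured by sex. Right, log2 signal (x axis) of Kdm6a and its measured X-chromosome neighbours (rows, in chromosomal order) in SCL/LMO1 mouse 7114/1 (diamonds) and the other 5 SCL/LMO1 mice (circles), where Kdm6a is the gene at which this mouse stands far from the rest. Maob, Ndp, Efhc2, Dusp21, Dipk2b, Chst7 and Rgn lie near or below the array medians, where a fall could not be seen.

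The other histone demethylase genes were called in no comparison on their brightest probe sets. On these, Jmjd1c lay between 10.96 and 11.74 in all 17 samples. Other probe sets were lower in the spleens than in SCL/LMO1 thymi for Phf8 (log2 -0.69, limma adjusted p = 0.000847), Kdm2a (-0.60, 0.00699) and Jmjd1c (-0.57, 0.0203). A Kdm3b probe set was higher (0.86, 0.00498). Those of Phf8 and Kdm3b had group means of 5.74 to 6.67, near the array medians. A dim Kdm2a probe set was lower than in WT in both leukemias (-0.43, 0.0201, and -0.44, 0.0291). Kdm5b spread widely within both leukemias, from 8.07 to 10.67 in the spleens and from 8.04 to 10.94 in SCL/LMO1 thymi. Jmjd6 was between 8.89 and 10.19 in the spleens, 9.35 and 9.99 in SCL/LMO1 thymi, and 8.92 and 9.25 in WT thymi, and it was called between the leukemias without spleen mouse 525 (limma adjusted p = 0.0205).

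Sex was compared because the WT mice were all female and 5 of 6 SCL/LMO1 mice male. In a fit with group and sex, 5 of 20672 genes were called (0.0242%), and of the 42 dioxygenase genes none was (0 at adjusted p under 0.05). At an unadjusted p under 0.05 the male minus female difference was -1.18 for Egln3, 0.35 for Kdm4c, 0.35 for Hif1an and 0.27 for Phf8. Kdm6a gave -0.74 (SE 0.58) with mouse 7114/1 and -0.50 (SE 0.19, unadjusted p = 0.0178, limma adjusted p = 1) without it. In the fit without mouse 555 it gave -0.91 (SE 0.62). Within the spleens Kdm6a lay at 9.31 to 10.07 in 4 males and 9.56 to 10.76 in 4 females. The value of 9.56 belonged to mouse 555, counted as female though it carried Ddx3y (6.70) as well as Xist. The other spleen females had 10.09 or more, above every spleen male.

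The EGLN prolyl hydroxylases and Hif1an, an asparaginyl hydroxylase, are the oxygen sensors that restrain hypoxia-inducible factors. None of the 4 was called in any comparison. Egln1 had 7.46, 8.75 and 10.23 in Idh2R140Q/NHD13 spleens, 9.35, 9.63 and 9.81 in SCL/LMO1 thymi, and 9.83, 9.93 and 10.54 in WT thymi. The spleens spread over 2.77 log2 units and mice 524 and 555 lay above every SCL/LMO1 thymus, while the other 6 lay below every thymus of either group. The log2 difference was -0.73 against SCL/LMO1 thymi (limma adjusted p = 0.132) and -1.21 against WT (0.057). It was called between the leukemias without mouse 524 (0.0289) or 555 (0.0482), and against WT without either of them (0.0135 and 0.0190), and the second Egln1 probe set was lower by -1.25 (0.00429). Egln3 spread most among the spleens of the 3 EGLN genes. It had 5.72, 8.58 and 9.56 in the spleens, 8.36, 8.66 and 10.35 in SCL/LMO1 thymi and 8.28, 8.46 and 9.06 in WT thymi. Egln2 was nearly level, between 9.30 and 9.82 in all 17 samples.

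Of 16 HIF subunits and target genes, 1 was higher and 1 lower in the spleens than in SCL/LMO1 thymi, 12.5% called against 23.7% of all genes, with a median of -0.22 against 0.03 over all genes. Ankrd37, a hypoxia target, was lower in the spleens (log2 -1.42, limma adjusted p = 0.0084). It was higher in SCL/LMO1 thymi than in WT (1.63, 0.0339). Car9, a carbonic anhydrase induced in hypoxia, was higher in the spleens (1.05, 0.011), where it lay between 4.47 and 6.51, against 4.45 to 4.80 in SCL/LMO1 thymi. All these SCL/LMO1 values and some of the spleen values lay below the array medians and cannot be separated from background. Vegfa, Slc2a1, Ldha, Pgk1 and Pdk1 were not called in any comparison.

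The widest signal differences of the family lay in the collagen hydroxylases, which modify proline and lysine in collagen chains. Promoters of the P4ha genes and Kdm3a, from RefSeq on GRCm38.p6, are shown because these genes are known targets of hypoxia-inducible factors in other systems. Each line runs 250 bases before to 50 after the start, 5′ to 3′ on the gene's strand, with capitals for the core motifs ACGTG and GCGTG on either strand.
P4ha1, chr10:59323046-59323345, plus strand: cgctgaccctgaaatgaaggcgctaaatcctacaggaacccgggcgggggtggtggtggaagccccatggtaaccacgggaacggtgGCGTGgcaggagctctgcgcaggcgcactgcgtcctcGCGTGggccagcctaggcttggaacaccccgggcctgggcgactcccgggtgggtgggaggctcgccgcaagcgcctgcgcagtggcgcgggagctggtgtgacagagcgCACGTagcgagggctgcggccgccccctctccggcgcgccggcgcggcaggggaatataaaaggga
P4ha2, chr11:54100674-54100973, plus strand: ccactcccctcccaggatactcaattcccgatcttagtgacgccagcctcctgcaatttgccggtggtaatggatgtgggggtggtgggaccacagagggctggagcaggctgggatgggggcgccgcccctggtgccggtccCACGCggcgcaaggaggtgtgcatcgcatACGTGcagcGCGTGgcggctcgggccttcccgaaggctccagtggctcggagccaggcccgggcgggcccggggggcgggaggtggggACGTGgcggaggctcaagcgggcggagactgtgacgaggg
Kdm3a, chr6:71632868-71633167, minus strand: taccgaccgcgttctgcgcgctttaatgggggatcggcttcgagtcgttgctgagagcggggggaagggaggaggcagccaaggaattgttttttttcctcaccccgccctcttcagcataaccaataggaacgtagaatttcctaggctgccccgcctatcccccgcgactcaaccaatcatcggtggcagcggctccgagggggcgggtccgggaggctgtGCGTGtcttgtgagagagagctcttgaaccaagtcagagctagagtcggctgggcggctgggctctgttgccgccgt
P4ha1 held 1 ACGTG and 2 GCGTG, P4ha2 held 2 of each, and Kdm3a, whose table lists 3 starts, held 1 GCGTG in the promoter shown. Overlapping matches were counted. ACGTG was found in 19.6% of 32851 promoters, GCGTG in 32.4% and either in 43.8%. Of the dioxygenase genes 35 matched a promoter, with 45 promoters between them, and 24 of these (53.3%) held either motif. Plod2 is among those with no entry.

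Plod2, the lysyl hydroxylase of collagen telopeptides, had 6.51, 7.04 and 8.82 in Idh2R140Q/NHD13 spleens and 8.77, 9.91 and 11.14 in SCL/LMO1 thymi, and WT thymi had 6.97, 7.05 and 7.42. Spleen mouse 524, at 8.82, was the only overlap between the leukemias, and SCL/LMO1 and WT thymi did not overlap. Plod2 was 5.86-fold lower in the spleens than in SCL/LMO1 thymi (log2 -2.55, SE 0.39, limma adjusted p = 0.000245) and 6.99-fold higher in SCL/LMO1 thymi than in WT (2.80, SE 0.52, 0.00286). Both calls held whichever sample was left out. The second probe set gave -3.10 (0.000156) and 3.24 (0.00319). Between the spleens and WT the difference was 0.25 (0.733).

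P4ha2, a catalytic subunit of collagen prolyl 4-hydroxylase, had 4.46, 5.08 and 6.35 in Idh2R140Q/NHD13 spleens, 5.12, 8.41 and 8.84 in SCL/LMO1 thymi and 5.10, 5.93 and 6.96 in WT thymi. SCL/LMO1 mouse 7114/1 had 5.12 and the other 5 had 7.27 or more, above all spleens. The spleens other than mouse 555 lay below the array medians and cannot be separated from background, so a fold compares signals only and may understate the difference. The P4ha2 signal was 6.46-fold lower in the spleens (log2 -2.69, SE 0.51, limma adjusted p = 0.00129), and -3.22 (2.32e-05) without mouse 7114/1. Over WT the SCL/LMO1 thymi gave 1.79 (0.097), and 2.32 (0.00628) without that mouse. P4ha1, the other main catalytic subunit, had 8.27, 8.70 and 9.07 in the spleens, 8.85, 9.01 and 9.70 in SCL/LMO1 thymi and 8.18, 8.40 and 8.86 in WT thymi, and the ranges overlapped. It was lower in the spleens than in SCL/LMO1 thymi (-0.49, 0.0393) and higher in SCL/LMO1 thymi than in WT (0.69, 0.0454). Between the leukemias the call was lost without any one of mice 524, 526, 531, 546+550, 555, 6889/1, 6466/4 and 6883/2 (0.0535 to 0.0996), with the mean of its probe sets (0.127), without mice 555, 627 and 6889/1 (0.144) and with quantile normalization (0.05). Against WT it was lost without any one of mice 627, 631, 526, 531, 546+550, 559, 570, 7114/3, 6889/1, 6466/4 and 6883/2 (0.052 to 0.189). It was kept in 6 of 13 other settings and lost with the mean of its probe sets (log2 0.36, 0.255), without mice 555, 627 and 6889/1 (0.235), with sex as a covariate (0.094), with only the 2 groups (0.0728), with quantile normalization (0.0589), with a variance trend (0.0571) and with array weights (0.0529). P4ha3, P4htm, Plod1 and Plod3 were called in none of the comparisons on their brightest probe sets. The second P4htm probe set was lower in the spleens than in SCL/LMO1 thymi (log2 -0.62, limma adjusted p = 0.0379). Without spleen mouse 525, P4htm was called lower in the spleens than in SCL/LMO1 thymi (0.0436). Without the same mouse P4ha3 was called lower in the spleens than in WT (0.00615), at signals below the array medians.

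Of 10 collagen genes, the substrates of these enzymes, 4 were lower and 1 higher in the spleens than in SCL/LMO1 thymi, 50% called against 23.7% of all genes, with a median of -0.63 against 0.03 over all genes. Col3a1 gave a log2 difference of -2.11 (limma adjusted p = 0.00492), Col1a2 -1.62 (0.00713), Col6a1 -1.24 (0.00633) and Col1a1 -1.11 (0.037). Col5a1 ran the other way (2.09, 0.018). The mean of 10 fibroblast markers was 6.71 to 8.70 in Idh2R140Q/NHD13 spleens, 7.74 to 8.70 in SCL/LMO1 thymi and 8.34 to 10.04 in WT thymi, and its part in the collagen and hydroxylase values was not tested.

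Several ALKBH enzymes, though not all, repair or demethylate nucleic acids, as does Fto. Alkbh8, which modifies transfer RNA, had 8.69, 9.77 and 10.98 in Idh2R140Q/NHD13 spleens, 8.57, 9.04 and 9.11 in SCL/LMO1 thymi, and 8.86, 9.43 and 9.51 in WT thymi. Spleen mouse 555, at 8.69, was within the SCL/LMO1 range and the other 7 spleens lay above it. The difference between the leukemias was 0.96 (SE 0.28, limma adjusted p = 0.0202). Alkbh7, a mitochondrial member, was higher by 0.62 (0.0261), with 8.07, 8.69 and 9.21 in the spleens and 7.63, 7.95 and 8.23 in SCL/LMO1 thymi. Its call was lost without SCL/LMO1 mouse 7114/3 (0.0568) or 7114/1 (0.065), with sex as a covariate (0.0703), with quantile normalization (0.0557) and with mice 7114/1 and 7114/3 averaged (0.0598). Both were also lost with arrays centred on their medians (0.0854 for Alkbh7 and 0.0676 for Alkbh8), and Alkbh8 with the mean of its probe sets (0.0694).

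Against WT, SCL/LMO1 thymi were higher for Alkbh1 and Alkbh4. Alkbh1, which acts on DNA and transfer RNA, had 9.39, 9.60 and 9.72 in SCL/LMO1 thymi and 8.39, 8.56 and 8.98 in WT thymi, with no overlap (log2 0.93, SE 0.21, limma adjusted p = 0.0107). Alkbh4 had 8.30, 8.55 and 8.78 in SCL/LMO1 thymi and 7.64, 8.02 and 8.25 in WT thymi, also without overlap (0.56, SE 0.14, 0.0145). Both calls were lost without WT mouse 627 (0.0883 for Alkbh1 and 0.134 for Alkbh4) with sex as a covariate (0.0513 and 0.103) and without mice 555, 627 and 6889/1 (0.0647 and 0.145). Fto and Alkbh5, the eraser enzymes of methylated adenosine in RNA, were not called in any comparison. Of 11 genes that write or read that mark, 4 were lower in the spleens than in SCL/LMO1 thymi, among them Ythdc1 (-0.63, 7.27e-05) and Wtap (-0.62, 0.000584), and none was higher. That is 36.4% called, against 23.7% of all genes, and the median of the list was -0.24, against 0.03 over all genes.

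The 3 remaining genes act on small molecules. Tmlhe, the first enzyme of carnitine synthesis, had 5.74, 6.59 and 7.30 in Idh2R140Q/NHD13 spleens, 6.61, 6.79 and 6.96 in SCL/LMO1 thymi, and 7.36, 7.99 and 8.46 in WT thymi. On this brightest probe set both leukemias lay wholly below WT. The log2 difference from WT was -1.42 in the spleens (SE 0.29, limma adjusted p = 0.0037), kept in every fit with 1 sample left out. In SCL/LMO1 thymi it was -1.15 (SE 0.30, 0.0212), lost without WT mouse 623 (0.0804) or 627 (0.17), with sex as a covariate (0.167), without mice 555, 627 and 6889/1 (0.164) and with the mean of its probe sets (log2 -0.59, 0.187). Within WT, Tmlhe was 8.46 in mouse 627, 7.99 in 623 and 7.36 in 631, and the adipocyte marker mean was 12.98, 11.72 and 9.46 in the same mice. The part of adipocyte and thymic epithelium markers in the Tmlhe values was not tested. These 2 comparisons share the WT samples. Between the leukemias Tmlhe gave -0.27 (0.436) on its brightest probe set, and the other 3 gave -1.21 to -1.30, all called. Against WT the other 3 probe sets gave -1.27 to -1.91 in the spleens, all called. In SCL/LMO1 thymi they gave -0.70 to 0.03 against WT, none called. The spleen means of these 3 probe sets were 5.37 to 5.65, below the array medians. On the brightest one, spleen mice 526 (5.74) and 570 (5.77) lay below the medians too. Such values cannot be separated from background, so these differences compare signals only.

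Phyh, which breaks down branched fatty acids in peroxisomes, had 7.43, 7.58 and 8.09 in SCL/LMO1 thymi and 8.45, 9.69 and 11.80 in WT thymi. It was lower in SCL/LMO1 thymi (log2 -2.35, SE 0.69, limma adjusted p = 0.0386), and the call was lost without any one of mice 623, 627, 3767, 7114/3, 6889/1, 6466/4, 6883/2 and 7114/1 (0.0503 to 0.29), with sex as a covariate (0.224) and with mice 7114/1 and 7114/3 averaged (0.0638). Without WT mouse 627 the difference was -1.44. In the spleens it had 7.49, 8.23 and 11.21, the last in mouse 555. The mean of 8 adipocyte markers was 9.46 to 12.98 in WT thymi, highest in mouse 627, and 6.65 to 8.21 in SCL/LMO1 thymi. In the spleens it was 9.28 in mouse 555 and 5.41 to 5.78 in the others. Its part in the Phyh values was not tested. Bbox1, the last enzyme of carnitine synthesis, stood at 6.56 in mouse 555, against 5.46 or less in the other samples. Of 6 other carnitine pathway genes, 3 were higher in the spleens than in SCL/LMO1 thymi, among them Aldh9a1 (0.96, 0.000928) and Cpt1a (1.07, 0.00811), and none was lower. Of these 6, 50% were called, against 23.7% of all genes, and their median was 0.75, against 0.03 over all genes.

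**Figure D4:**
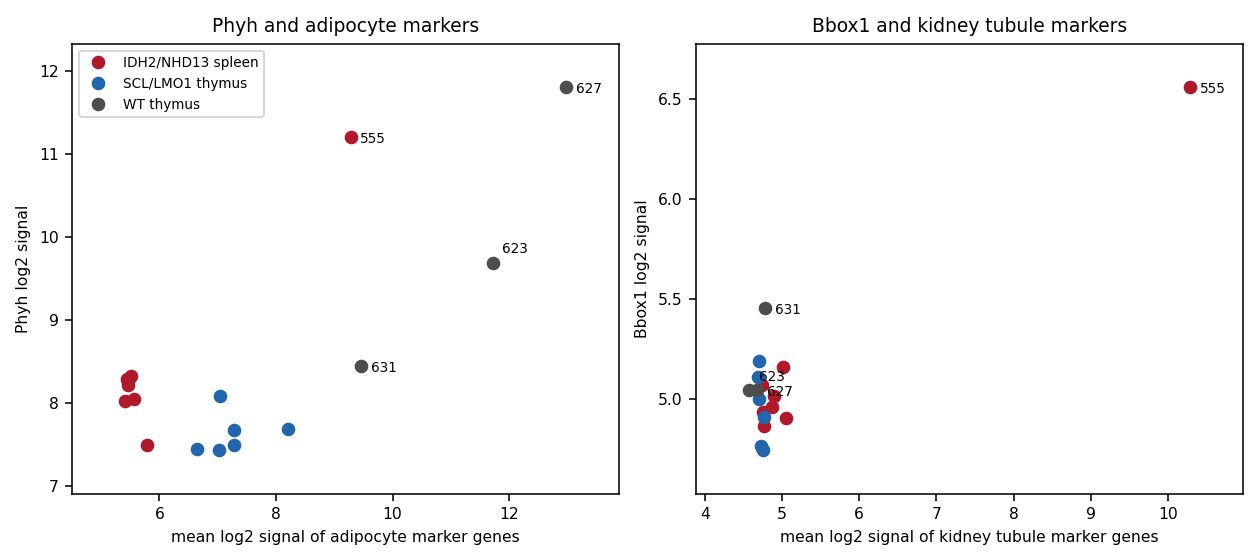
Log2 signal of Phyh against the mean of adipocyte markers (left) and of Bbox1 against the mean of kidney tubule markers (right), 1 point per sample and coloured by group. WT mouse 627 and spleen mouse 555 have the highest Phyh values, and mouse 555 alone is high for Bbox1 and kidney markers.

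Among 18 further oxygenases of the same family, 6 were higher and 2 lower in Idh2R140Q/NHD13 spleens than in SCL/LMO1 thymi, 44.4% called against 23.7% of all genes, with a median of 0.14 against 0.03 over all genes. Asph, which hydroxylates aspartate, was 4.53-fold higher (log2 2.18, SE 0.27, limma adjusted p = 3.51e-05), with 8.14 to 9.30 in the spleens, 5.66 to 7.18 in SCL/LMO1 thymi and 7.32 to 8.59 in WT thymi. Kdm7a, a histone demethylase, was higher by 1.22 (0.0032). Kdm8 (-0.56) and Alkbh6 (-0.87) were lower. P3h2, singled out after its values were seen, was called higher too, and its value of 9.63 in spleen mouse 555 compares with 6.66 or less in the other spleens. Kdm1b, a histone demethylase that uses flavin and not alpha-ketoglutarate, was lower in the spleens than in SCL/LMO1 thymi (-0.75, 0.0247) and than in WT (-1.14, 0.0133).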

How the data were processed

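RNA was measured on 18 1-colour expression arrays, each with its own number in the title, after TRIzol extraction and biotin labelling, per the labels' protocols. The values are log2 signals as deposited by the authors, and the sources used here do not give the probe summary or the normalization between arrays. The medians of the arrays were 5.891 to 6.01. Without detection calls, dim values and background look alike. Probe sets were named by the platform annotation, updated through RefSeq identifiers (38089 with 1 symbol, 6948 with none and 64 controls), and 36 unmapped value columns of other tables were not used. The brightest probe set stood for each of 20672 genes.

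Tests used limma 3.58.1 in R 4.3.3, with a coefficient per group and eBayes for the 3 contrasts. Genes were called below an adjusted p of 0.05 (Benjamini-Hochberg, 20672 genes). The script was tested on simulated data. Sex was read from Xist and Ddx3y. Related gene lists and marker lists held 182 genes, of which 179 were measured. The dioxygenase genes and the lists were chosen with earlier results of these data known. Values in every group are given for up to 4 called genes of each class and comparison with the largest change, for Tet1, Tet2, Tet3, Egln1, Egln2, Egln3, Kdm5c and Kdm6a, and for other members where described. Of each related list, the called genes with the smallest adjusted p are named.

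Alternatives were quantile normalization, centred medians, the mean of a gene's probe sets, a filter on dim genes (13852 remained), each probe set alone, robust moderation with a trend in the variance, weights per array, only the 2 groups compared, all 18 arrays separately, sex as a covariate, mice 555, 627 and 6889/1 left out, an adjusted p under 0.01, and each sample left out. A random block for mice 7114/1 and 7114/3 alone could not be fitted. Added after seeing the data were both close pairs as random blocks (correlation 0.767) and mice 7114/1 and 7114/3 averaged.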

Additional observations from a re-analysis of the deposited data

Results flagged for a closer look

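Each of the 42 genes was examined in the 8 spleens and the 6 SCL/LMO1 thymi, 84 sets of values, for a highest or lowest sample that stood apart by Dixon's test, and 9 sets had one. Chance gives about 1 in 20. Mouse 555 of the Idh2R140Q/NHD13 group stood apart for Phyh at 11.208, Bbox1 at 6.56 and P4ha2 at 6.345, where the next highest spleens had 8.331, 5.159 and 5.208. Mouse 525 of the same group stood apart for P4ha3 at 5.381, with the next spleen at 4.324. Among SCL/LMO1 thymi, mouse 7114/1 stood apart for Kdm6a at 5.993, with the next lowest at 9.868. Mouse 3767 stood apart for Kdm6b at 10.426, Fto at 9.505 and Tet3 at 7.244, with the next highest at 9.58, 9.063 and 6.78. The part of its high thymic epithelium marker mean (8.734) in these values was not tested. Mouse 6466/4 stood apart for Plod1 at 6.757, with the next highest at 6.399.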

How the results depend on the processing

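Between Idh2R140Q/NHD13 spleens and SCL/LMO1 thymi, 12 dioxygenase genes were called, 5 at an adjusted p under 0.01 and 9 to 14 with 1 sample left out. The split of 4 higher and 8 lower became 1 and 9 with centred medians and 1 and 12 with the mean of all probe sets. For the spleens over WT, 4 were called, against 2 with centred medians, 10 with array weights, 2 with only the 2 groups in the fit, 1 at an adjusted p under 0.01 and 1 to 8 with 1 sample left out. For SCL/LMO1 thymi over WT, 6 were called, against 2 without mice 555, 627 and 6889/1, 1 with sex as a covariate, 1 at an adjusted p under 0.01 and 1 to 7 with 1 sample left out. The cause was not tested. Of the calls, 7 of 12, 1 of 4 and 1 of 6 held in every fit with 1 sample left out, a share that was not computed over all genes. Centring moved the median of all genes to 0.302 for SCL/LMO1 over WT, against 0.0793, and turned 1042 higher and 1348 lower genes into 2215 and 1018. Array weights called 6902 genes for the spleens over WT, against 3596, and 4827 for SCL/LMO1 over WT, against 2390. With sex as a covariate 818 were called for SCL/LMO1 over WT, with only those 2 groups 3558 and 1989 for the spleens over WT, and without mice 555, 627 and 6889/1 there were 1060 for SCL/LMO1 over WT. Over all genes, 4064 to 5357 were called between the leukemias with 1 sample left out. The range was 1382 to 5288 for the spleens over WT and 765 to 2989 for SCL/LMO1 over WT.

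No called gene changed direction in any setting. Of the uncalled genes, 6 of 30 between the leukemias, 17 of 38 for the spleens over WT and 15 of 36 for SCL/LMO1 over WT did so in at least 1 setting. Among Tet1, Tet2, Tet3, Egln1, Egln2, Egln3, Kdm5c and Kdm6a these were Kdm6a between the leukemias (-0.0854 without mouse 7114/1, and up to 0.7925 with another sample left out), Tet2, Kdm5c, Egln2 and Egln3 for the spleens over WT (Tet2 -0.3816 to 0.0577 with 1 sample left out, Kdm5c -0.0882 with the mean of probe sets, Egln2 0.0219 centred and Egln3 0.1963 with sex), and for SCL/LMO1 over WT Tet3 (0.0405 with quantile normalization and 0.0432 centred), Egln2 (0.015 centred) and Egln3 (-0.0571 without mice 555, 627 and 6889/1). No paired analysis was possible because the labels give mouse numbers and no replicate number that the groups share. Low signals cannot be separated from background, and 3 WT arrays limit both comparisons with WT.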
